A study of Mus musculus with 12 samples.

Results

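The NK2- and NK6-type homeobox genes of the mouse, Nkx2-1, Nkx2-2, Nkx2-3, Nkx2-4, Nkx2-5, Nkx2-6, Nkx2-9, Nkx6-1, Nkx6-2 and Nkx6-3, were described by the sites of trimethylated histone H3 lysine 27 (H3K27me3) that lie at and around them. The 10 genes were taken by name from 21755 protein-coding genes on chromosomes 1 to 19 and X. A site was assigned to a gene if it overlapped the gene body extended by 20 kb on both sides. By this rule 84 of 101389 listed sites belonged to the 10 genes, and none of the 84 sites belonged to more than 1 gene.

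The study followed histone marks after rapid loss of ASH2L, which the COMPASS/KMT2 enzymes need to methylate H3 lysine 4. The cells were iMEF cells, immortalized mouse embryo fibroblasts that carry Ash2l fl/fl and a CAGG-Cre-ER transgene, expressed from a ubiquitous hybrid promoter. A lentivirus brought in human ASH2L with an N-terminal FKBP12F36V domain and HA tags. The cells' own Ash2l then lost exon 4 through the recombinase. Clones were grown by limiting dilution, of which NG3 was used for the ChIP-seq. All groups, untreated controls included, therefore lack endogenous Ash2l and come from 1 clone with a human transgene. H3K27me3 ChIP-seq was performed in 2 libraries each of untreated cells and of cells treated with dTAG, a compound that sends the fusion protein to degradation, for 16 h, 24 h and 48 h. Input chromatin was sequenced in 2 libraries of untreated cells and 2 of cells treated for 48 h. The file used here is 1 list of positions that pools all samples, with no value for a library, so from it untreated and treated cells could not be compared at these genes and no replicate error can be given. A separate list of sites changed at each time point, which the study describes, was not used here. The study planned a minimum number of raw reads per ChIP sample and brought libraries to the lowest coverage, but the depth each library reached is not in the list.

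The Nkx2 and Nkx6 genes encode transcription factors that bind DNA through a homeodomain and set cell fates in the ventral neural tube and in organs such as thyroid, lung, heart, spleen, pancreas and stomach. Fibroblasts are not among the cell types they are known to specify. H3K27me3 is laid down by Polycomb repressive complex 2, often over broad domains at the CpG-rich promoters of developmental regulators that a cell does not use.

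Each of the 10 genes had an H3K27me3 site across its 5′ end, between 3946 bp (Nkx2-4) and 34688 bp (Nkx2-5) wide. These sites covered all 16 annotated transcription start sites (TSSs) of the 10 genes, although only 7 genes had a CpG island within 1 kb of a TSS. Over all protein-coding genes a site lay over at least 1 TSS in 21.4%, and over every TSS in 11.9%. Among protein-coding genes with a CpG island at a TSS, the share with a site over a TSS was 21.5%. Widening the distance to 1 kb left the count at 10 of 10, beside 26.9% of all protein-coding genes. Asking for the midpoint of a site within 1 kb left 3 of 10 genes, beside 18.5%. Any site within the extended gene, which is what the selection looks at, was found for 61.5% of all protein-coding genes.

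The sequences behind these sites differed in CpG content. For 8 of the 10 genes RefSeq (GRCm38.p6) lists a promoter window of 250 bases before to 50 bases after the start, and all 8 windows lay inside the site over the gene's 5′ end. They held between 9 (Nkx2-5) and 40 (Nkx6-1) CpGs, with a median of 16 beside 7 over 27025 genes with such a window. Nkx2-6 and Nkx6-3 had no entry. The start listed for Nkx2-5 is the inner of its 2 TSSs. The bases before the start of Nkx2-3, the gene with the highest covered share, and of Nkx2-5, the gene with the widest site and the fewest CpGs in this window, are shown 5′ to 3′ on the strand of the gene with each CpG in capitals. They are the part of the window that overlaps no annotated exon, 250 bases at chr19:43612075-43612324 on the plus strand for Nkx2-3 and 207 bases at chr17:26841609-26841815 on the minus strand for Nkx2-5 (GRCm38.p6).
Nkx2-3: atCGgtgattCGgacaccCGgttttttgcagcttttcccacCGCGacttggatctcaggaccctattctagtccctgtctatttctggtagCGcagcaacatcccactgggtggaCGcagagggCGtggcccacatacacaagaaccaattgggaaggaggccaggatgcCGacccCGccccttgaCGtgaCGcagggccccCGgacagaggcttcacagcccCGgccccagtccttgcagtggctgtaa
Nkx2-5: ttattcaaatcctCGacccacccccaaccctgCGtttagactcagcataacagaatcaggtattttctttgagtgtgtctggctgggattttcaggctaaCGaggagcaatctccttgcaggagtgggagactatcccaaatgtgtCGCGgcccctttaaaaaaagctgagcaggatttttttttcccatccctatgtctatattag

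Nkx2-3 carried 14 CpGs in its 250 printed bases and Nkx2-5 carried 5 in 207. Both lie inside sites of over 20 kb. To show the range within the sites themselves, the 200-base stretch with the most CpGs outside any exon was read from the genome for each site over a 5′ end. These stretches held between 6 and 33 CpGs. They are printed in the same way for Nkx2-5 (chr17:26844582-26844781, minus strand), Nkx2-4 (chr2:147084521-147084720, minus strand), which had the most, Nkx2-1 (chr12:56534477-56534676, minus strand), Nkx6-1 (chr5:101665280-101665479, minus strand), Nkx2-6 (chr14:69172289-69172488, plus strand) and Nkx6-3 (chr8:23150680-23150879, plus strand), which had the fewest.
Nkx2-5: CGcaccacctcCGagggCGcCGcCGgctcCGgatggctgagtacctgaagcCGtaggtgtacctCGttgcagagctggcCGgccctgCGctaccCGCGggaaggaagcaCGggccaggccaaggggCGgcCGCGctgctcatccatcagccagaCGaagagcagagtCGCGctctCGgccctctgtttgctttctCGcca
Nkx2-4: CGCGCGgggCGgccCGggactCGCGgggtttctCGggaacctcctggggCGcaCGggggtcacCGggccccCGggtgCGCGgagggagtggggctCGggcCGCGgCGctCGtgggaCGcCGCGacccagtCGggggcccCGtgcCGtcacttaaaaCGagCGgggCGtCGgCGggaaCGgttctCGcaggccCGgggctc
Nkx2-1: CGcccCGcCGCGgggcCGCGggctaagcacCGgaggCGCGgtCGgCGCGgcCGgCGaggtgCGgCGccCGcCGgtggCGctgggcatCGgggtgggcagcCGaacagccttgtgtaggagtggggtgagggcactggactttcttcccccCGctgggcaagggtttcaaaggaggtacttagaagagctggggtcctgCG
Nkx6-1: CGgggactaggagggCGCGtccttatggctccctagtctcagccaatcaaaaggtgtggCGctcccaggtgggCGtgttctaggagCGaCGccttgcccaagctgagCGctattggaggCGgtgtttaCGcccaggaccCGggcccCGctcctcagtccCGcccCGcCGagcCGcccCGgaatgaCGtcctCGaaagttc
Nkx2-6: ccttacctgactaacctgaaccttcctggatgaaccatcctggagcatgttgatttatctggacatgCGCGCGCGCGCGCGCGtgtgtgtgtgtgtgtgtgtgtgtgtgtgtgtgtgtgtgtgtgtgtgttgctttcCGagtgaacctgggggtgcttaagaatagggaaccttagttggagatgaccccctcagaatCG
Nkx6-3: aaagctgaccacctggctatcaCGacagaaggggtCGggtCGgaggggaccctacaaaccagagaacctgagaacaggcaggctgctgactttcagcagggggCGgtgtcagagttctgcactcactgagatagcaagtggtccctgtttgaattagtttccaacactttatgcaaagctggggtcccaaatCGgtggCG

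The stretch of Nkx2-5 lay 228 to 427 bp downstream of its outer TSS and held 21 CpGs, more than the window at the inner TSS, and its whole site held 662. The stretch of Nkx2-4 lay in the intron, 725 to 924 bp downstream of the 5′ end, and held 33 CpGs. Nkx2-1 had 23, also downstream of the 5′ end, and Nkx6-1 had 19 upstream of it. The capitals of Nkx2-6 sit largely in a run of alternating C and G that continues as a TG repeat, with 10 CpGs in all. Nkx6-3 had 6 CpGs scattered over the stretch, 2390 to 2589 bp upstream. Over the whole site across the 5′ end, the density was 69.2 CpGs per kb at Nkx2-4 and between 19.1 (Nkx2-5) and 38.6 (Nkx6-2) at the other 9 genes. The narrowest site was thus the CpG-densest and the widest the least dense, but the genes between did not follow this order. The narrow sites of Nkx6-3 (4228 bp) and Nkx2-6 (8375 bp) had 26.5 and 22.3 CpGs per kb, below the 31.0 of Nkx2-2 (21289 bp). Nkx2-9 (11315 bp) had 19.2, close to Nkx2-5.

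**Figure D1:**
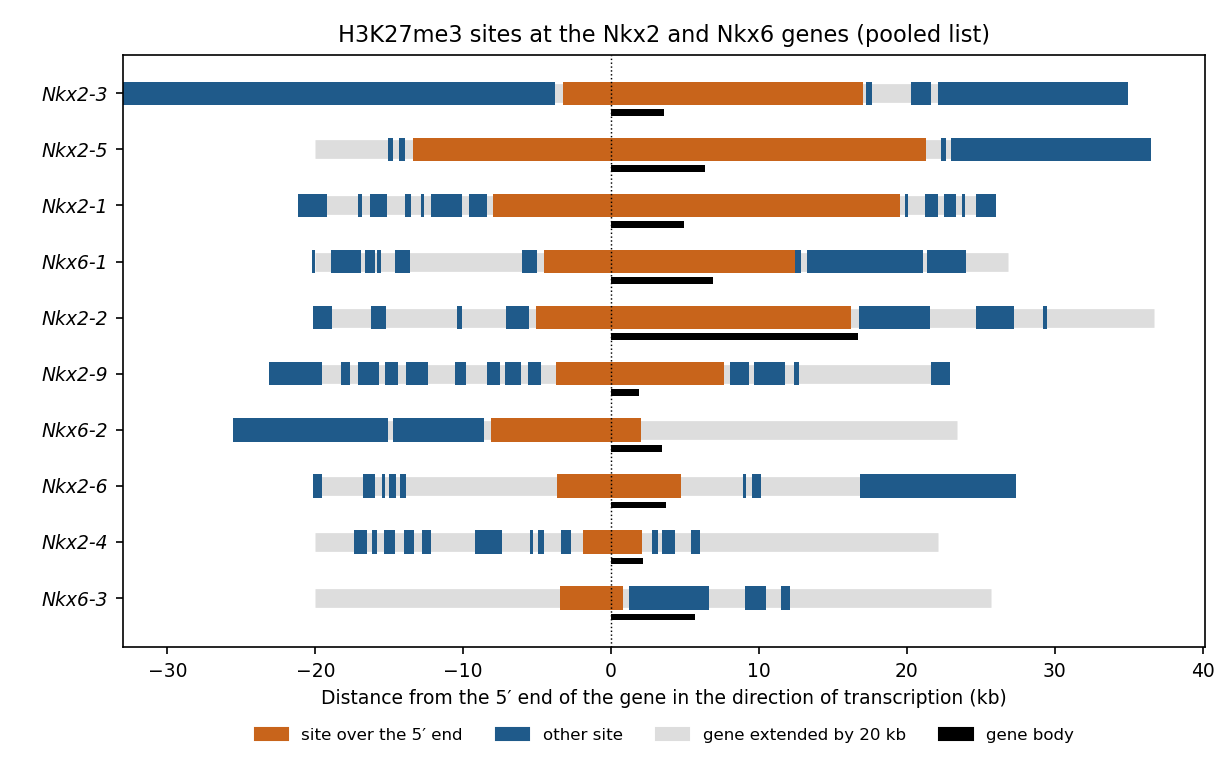
Positions of the H3K27me3 sites of the pooled list at the 10 genes, ordered by covered share. The x axis is the distance from the gene's 5′ end in kb in the direction of transcription, orange bars are sites over the 5′ end, blue bars other sites, grey the gene extended by 20 kb and black the gene body. Every 5′ end lies under an orange bar, from 3946 to 34688 bp wide.

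Nkx2-1 and Nkx2-9 lie next to each other on chromosome 12. Nkx2-1, the factor known from thyroid, lung and ventral forebrain (chr12:56531958-56536908, minus strand, mm10), was inside a site of 27530 bp at chr12:56517391-56544920. This site reached 8012 bp upstream and 19517 bp downstream of the 5′ end, over the whole gene and part of the transcript records Sfta3-ps and Gm26973. With 12 further sites, of 203 to 2081 bp, 80.1% of the extended gene was covered. Nkx2-9, a ventral midline neural factor related to Nkx2-2 (chr12:56611389-56613284, minus strand), was inside a site of 11315 bp at chr12:56605678-56616992. A further 13 sites surrounded it and brought the covered share to 56.9%. Its upstream 20 kb held more (61.1%) than its downstream 20 kb (48.7%), which face Nkx2-1.

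The 74480 bp between the Nkx2-1 and Nkx2-9 gene bodies were covered to 47.3%. No single site joined both genes. Between the sites over the 5′ ends, 18 smaller sites with a median width of 1047 bp filled 35.3% of 60757 bp, and the widest of them had 4992 bp. The longest stretch free of sites was 9190 bp at chr12:56576328-56585517. Because the pair shares this interval, Nkx2-1 and Nkx2-9 are not independent examples.

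Nkx2-2 and Nkx2-4 form a second pair on chromosome 2. Nkx2-2, which specifies ventral spinal cord progenitors and pancreatic islet cells (chr2:147177546-147194243, minus strand), had a site of 21289 bp at chr2:147178049-147199337 over all 4 of its TSSs. The site ended short of the 3′ end of the gene, and 99.2% of the intronic but 86.1% of the exonic bases were covered. It also ran over the antisense records Nkx2-2os and 6430503K07Rik, and in total 8 sites covered 58.1% of the extended gene. Nkx2-4, a close relative of Nkx2-1 (chr2:147083316-147085445, minus strand), had the narrowest site, 3946 bp at chr2:147083364-147087309. There the mark was broken into 13 sites, none of the 12 others over 1834 bp, and 29.2% of the extended gene was covered. The sites lay mainly upstream (41.7% of 20 kb) and little downstream (9.41%), where Xrn2 follows 5315 bp away, with neither a site over a TSS nor one closer than 1 kb. Xrn2 was picked out after its values were seen.

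Of the 92100 bp between Nkx2-4 and Nkx2-2, 23.2% lay in sites. No site joined this pair either. The 20 sites between the sites over both 5′ ends had a median width of 556 bp, with 4841 bp as the widest, and an interval of 32761 bp at chr2:147116031-147148791 held no site. The interval without a listed site was longer at this pair than at Nkx2-1 and Nkx2-9, and the covered share between the genes was lower, which describes 2 loci and was not tested.

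**Figure D2:**
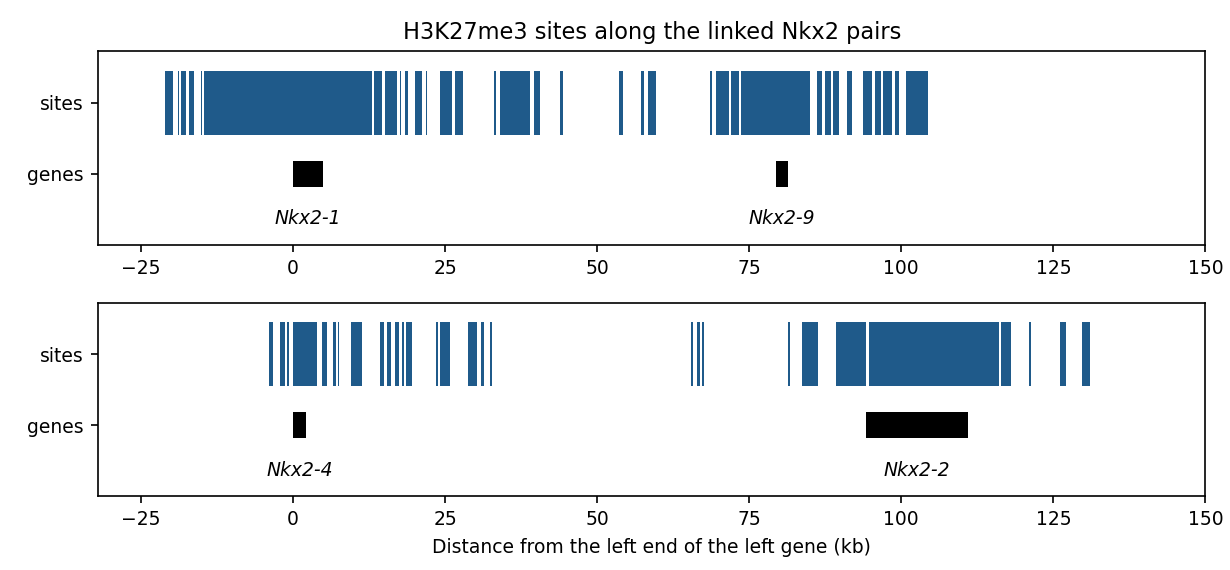
Sites (blue) and gene bodies (black) along Nkx2-1 with Nkx2-9 (top) and Nkx2-4 with Nkx2-2 (bottom), from 20 kb before the left gene to 20 kb after the right one; the x axis is the distance from the left end of the left gene in kb. Small separate sites fill 35.3% of the upper and 21.5% of the lower interval between the sites over the 5′ ends, and the lower one holds the site-free stretch of 32761 bp.

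Nkx2-3 and Nkx2-5, known from gut mesenchyme and from the heart, had the highest covered shares. Nkx2-5, the cardiac homeobox factor (chr17:26838664-26845009, minus strand), lay in the widest of these sites, 34688 bp at chr17:26823709-26858396, which reached 13387 bp upstream and 21300 bp downstream. Next to it, after a site of 350 bp, a site of 13551 bp began, and 84.5% of the extended gene was covered by 5 sites. Nkx2-3, needed for spleen and gut mesenchyme (chr19:43612325-43615892, plus strand), had the highest covered share, 91.2%. Its own site measured 20275 bp (chr19:43609076-43629350), but the widest site in its window was the neighbour upstream with 29241 bp, separated from it by 508 bp. Another broad site, of 12834 bp began 22136 bp downstream of the 5′ end.

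Nkx2-6, an NK2 gene of the pharyngeal endoderm and early heart (chr14:69171802-69175518, plus strand), had a lower share. Its site of 8375 bp (chr14:69168142-69176516) covered the whole gene, and the next sites on either side had 387 bp upstream and 200 bp downstream. The widest site of its window was not this one but one of 10567 bp that began 16799 bp downstream of the 5′ end and crossed the edge of the window. In total 9 sites touched the extended gene and covered 42.2% of it.

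The 3 Nkx6 genes had covered shares of 25.7% to 70.1%, and the 7 Nkx2 genes of 29.2% to 91.2%. Nkx6-1, which acts in motor neuron progenitors and insulin-producing beta cells (chr5:101658139-101664996, minus strand), had a site of 16990 bp at chr5:101652555-101669544 over its whole body. Sites continued downstream, where 82.2% of 20 kb was covered, against 47.7% upstream, and the extended gene reached 70.1%. The listed site that follows the Nkx6-1 site starts after only 22 bp, the smallest distance between sites at the 10 genes.

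Nkx6-2, known from ventral neural progenitors and oligodendrocytes (chr7:139579376-139582797, minus strand), was marked on 1 side. Its site of 10134 bp (chr7:139580765-139590898) covered both TSSs and 59.4% of the gene body, and 95.8% of the 20 kb upstream lay in 3 sites. Downstream 0 bp of 20 kb was covered, and the next site on that side was 651547 bp away. The downstream side is the body of Inpp5a, a gene on the other strand whose 3′ end overlaps Nkx6-2 by 277 bp and which was named after its values were seen. The outermost upstream site, of 10493 bp, reached into Cfap46, a gene of motile cilia. Nkx6-3, a factor of the stomach epithelium and hindbrain (chr8:23153269-23158948, plus strand), had the lowest share, 25.7%. Its site of 4228 bp (chr8:23149850-23154077) covered the TSS and ran only 808 bp into the gene, and a site of 5464 bp covered the rest after 370 bp of intron. No further site was found upstream until 129642 bp from the gene.

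**Figure D3:**
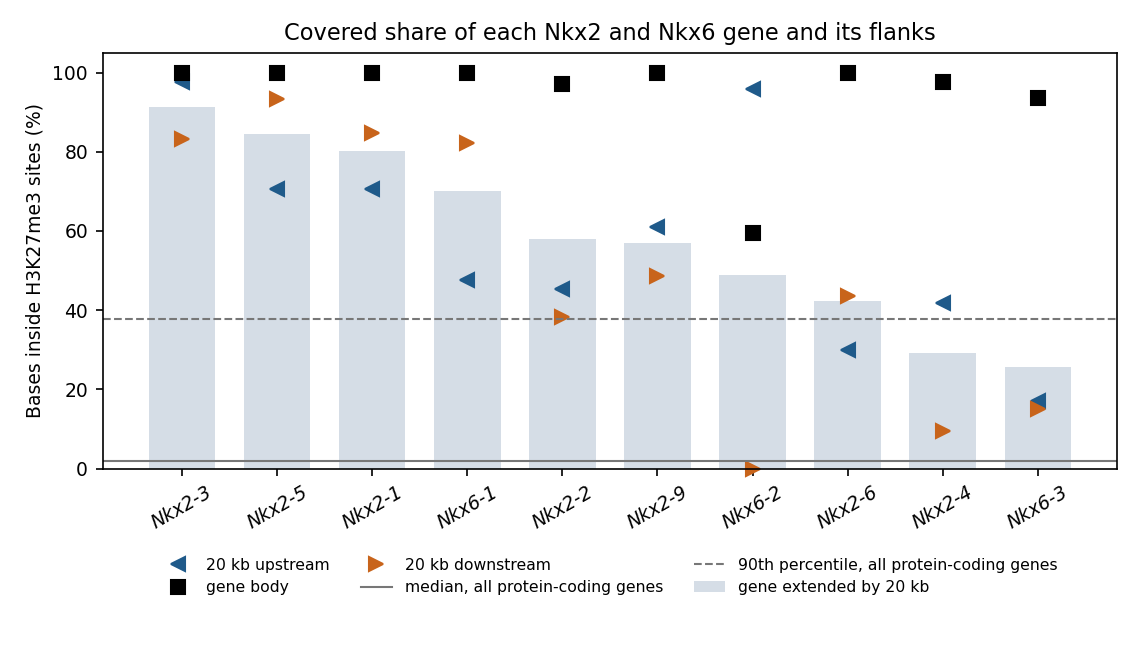
Share of bases inside H3K27me3 sites for each gene, in percent: grey-blue bars for the gene extended by 20 kb, squares for the gene body, left triangles for 20 kb upstream and right triangles for 20 kb downstream. Lines mark the median (1.88%) and the 90th percentile (37.9%) over 21755 protein-coding genes; 8 bars end above the 90th percentile, and Nkx2-4 and Nkx6-3 end below it.

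The covered shares of the 10 extended genes ran from 25.7% to 91.2% with a median of 57.5%. Over all protein-coding genes the median was 1.88%, and 4.83% of genes had a share at or above 57.5%. A share of at least 50% was reached by 6 of the 10 genes (Nkx2-1, Nkx2-2, Nkx2-3, Nkx2-5, Nkx2-9 and Nkx6-1) and by 6.47% of all protein-coding genes. Nkx2-3 ranked 137th from the highest and Nkx6-3 ranked 3412th of the 21755 genes. Counting each linked pair once gave a median over 8 genes of 64.1% without Nkx2-4 and Nkx2-9, the less covered gene of each pair, and of 52.9% without Nkx2-1 and Nkx2-2, so the direction of the shift follows from which genes are left out. Limiting the comparison to the 4650 protein-coding genes with a site over a TSS put their median at 28.3%, above the shares of Nkx6-3 only (25.7%) and just below that of Nkx2-4 (29.2%).

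Most of the genes, but not all, held a broad site. The site over a TSS was at least 10 kb wide at 7 of 10 genes, beside 5.47% of all protein-coding genes and 6.32% of those with a CpG island. The 3 exceptions were Nkx2-4, Nkx2-6 and Nkx6-3. Merging sites less than 1000 bp apart brought Nkx6-3 to 10062 bp and the count to 8, beside 9.42% of all protein-coding genes. Merging at 3000 bp brought Nkx2-4 to 23422 bp and the count to 9, beside 13.4%, with Nkx2-6 still below at 8375 bp. The median width of the site over the 5′ end was 14152 bp, and over the 4650 protein-coding genes with a site over a TSS it was 4939 bp. The other 74 sites of the windows had a median width of 870 bp, beside 676 bp for the whole list, and 5 of them were at least 10 kb wide, up to the 29241 bp next to Nkx2-3, beside 2.35% of all listed sites. Of the 74 distances between neighbouring sites in the windows, 48 (64.9%) were under 1000 bp. This share was 53.5% around all protein-coding genes and 56.6% around those with a site over the 5′ end. Close spacing was thus also common around protein-coding genes in general. In 8 of the 10 genes the site over the 5′ end reached farther downstream than upstream, with Nkx6-2 and Nkx6-3 as the exceptions, and the same held for 64.1% of the 3937 protein-coding genes with a site over the 5′ end.

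**Figure D4:**
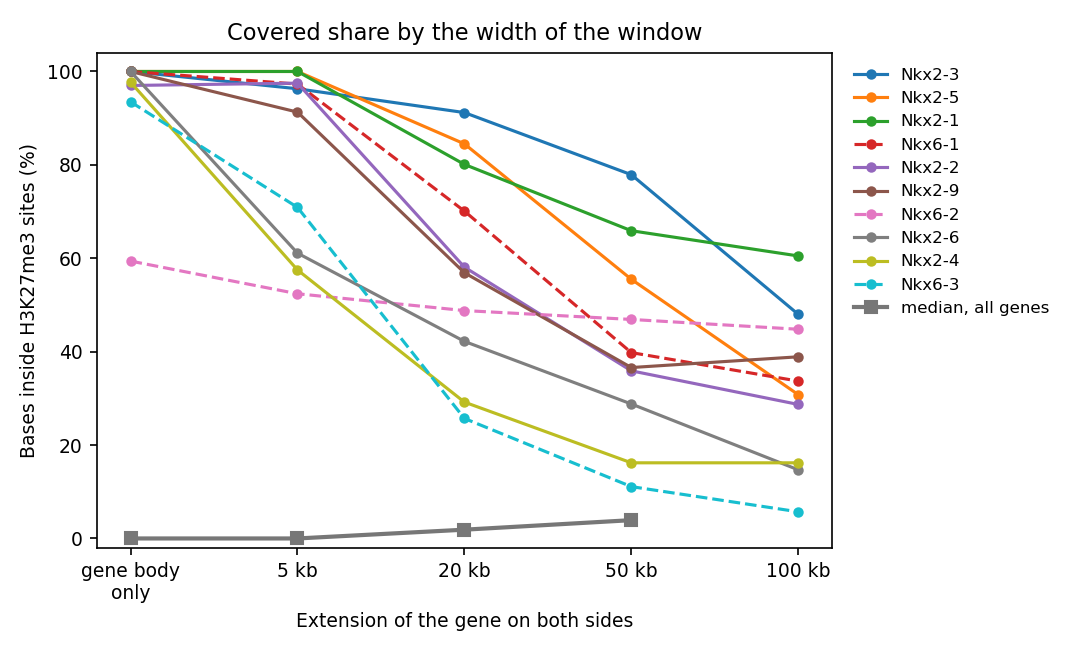
Covered share of each gene in percent when the gene body alone is taken or extended by 5, 20, 50 or 100 kb on both sides (x axis); solid lines are Nkx2 genes, dashed lines Nkx6 genes, and grey squares the median of all protein-coding genes up to 50 kb. Most lines fall as the window widens, from a median of 93.8% at 5 kb to 32.2% at 100 kb, while Nkx6-2 stays between 44.8% and 59.4%.

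The median covered share fell as the window around the genes widened. All of these genes have a site over the 5′ end. Whether the share falls in the same way at other genes with such a site was not tested. With only 5 kb on both sides, the share was between 52.4% (Nkx6-2) and 100% (Nkx2-1 and Nkx2-5) with a median of 93.8%. With 50 kb the median was 38.2%, from 11.1% at Nkx6-3 to 77.9% at Nkx2-3, and with 100 kb it was 32.2%. Nkx6-2 hardly fell, from 48.8% at 20 kb to 44.8% at 100 kb, a window that takes in most of Cfap46. Nkx2-1 also kept 60.5% at 100 kb. This window takes in Nkx2-9, but the 74480 bp between both genes were covered to a lower share, 47.3%. Sites crossed 12 of the 20 window edges, with a median width of 2786 bp. The first sites wholly outside lay between 21050 and 651547 bp from the genes and had a median width of 414 bp. Joining sites less than 3000 bp apart gave a domain of 107724 bp around the 5′ end of Nkx2-1, 102581 bp at Nkx6-2 and 89168 bp at Nkx2-3, whereas the domain of Nkx2-6 stayed at 8375 bp. The Nkx6-2 domain ran from the gene upstream over most of Cfap46 (chr7:139600951-139683817), whose extended body was covered to 85.5%.

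Coding sequence lay inside sites in full at 9 of the 10 genes, beside 27.9% of protein-coding genes with a site over the 5′ end. The exception was Nkx2-2 with 82.6% of coding bases. Introns were covered in full at 7 genes, to 99.2% at Nkx2-2, 89.3% at Nkx6-3 and 24.6% at Nkx6-2, beside 16.1% of such genes with introns covered in full. Neither comparison was matched for gene length, which ran from 1896 bp (Nkx2-9) to 16698 bp (Nkx2-2) at the 10 genes. The part of gene length in these contrasts was not tested. At Nkx6-2 the coding bases were covered in full while the bases outside sites lay in introns and untranslated exon parts.

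The bases inside sites were richer in G and C than those outside at all 10 genes, as at 93.4% of protein-coding genes with a site over the 5′ end. Inside, the GC content of the extended genes was between 45.5% and 52.6%, and outside between 35.3% and 50.9%. The difference was smallest at Nkx6-3, with 52.0% inside and 50.9% outside. Repeat-masked bases made up less of the sites than of the rest at 7 genes, for example 19.5% and 63.8% at Nkx6-1, beside 90.2% of protein-coding genes with a site over the 5′ end. At Nkx2-4, Nkx6-2 and Nkx6-3 the share inside was the higher one. Reads align less uniquely in repeats, and the part of this in the positions of the gaps was not tested. All 28 CpG islands in the 10 windows touched a site, beside 26.0% of 17022 islands in the genome. The bases differ, since each of the 10 windows holds a site over the 5′ end and the genome share includes islands at genes without a site. The 28 include islands away from the start sites, since Nkx2-3 had 5 islands in its window but none within 1 kb of its TSS.

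**Figure D5:**
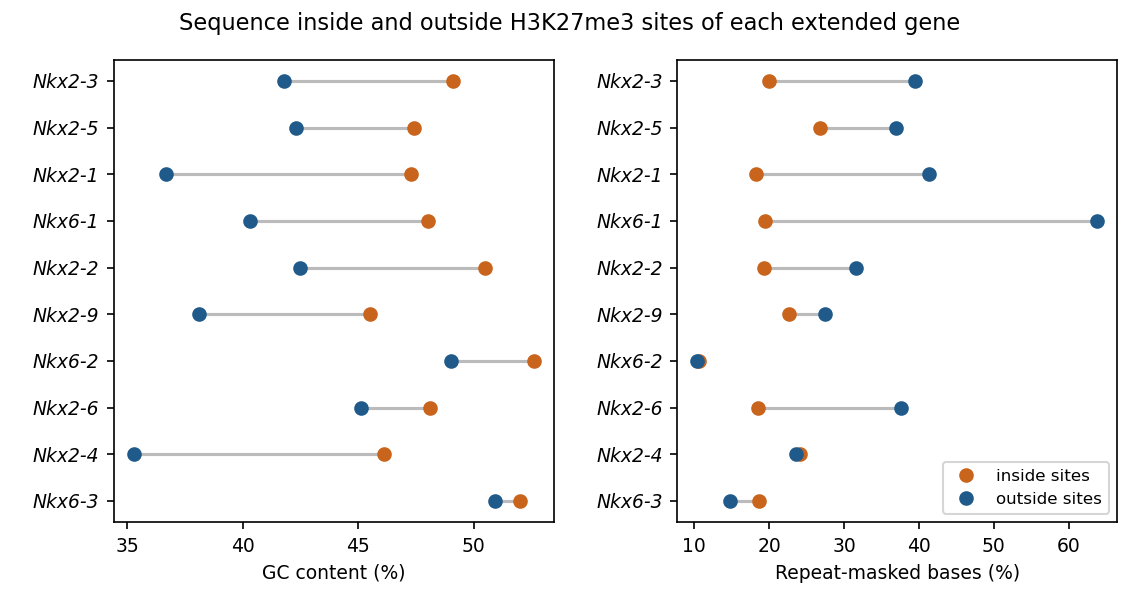
GC content (left, %) and repeat-masked bases (right, %) inside (orange) and outside (blue) H3K27me3 sites of each extended gene, joined by a grey line. GC content is higher inside at all 10 genes, and repeats are lower inside at 7 of them, most at Nkx6-1 (19.5% and 63.8%).

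Lists of related genes are given by counts of a site over a TSS, to be read beside the 21.4% of all protein-coding genes. The lists were chosen with earlier results of these data known and overlap in part, since Isl1, Nkx3-2, Tlx1 and Barx1 each stand in more than 1 of them. Among 17 other NK-type homeobox genes all 17 had such a site, 15 of them at least 10 kb wide, with a median covered share of 77.2%. The widest was at Vax2 (85516 bp) and the narrowest at Noto (4072 bp). Of 10 LIM homeobox genes 9 had a site over a TSS, from 7077 bp at Lhx6 to 95936 bp at Lmx1b, and the exception Lhx9 had no site in its extended body. Their median covered share was 54.3%, beside 57.5% for the Nkx2 and Nkx6 genes. Of 9 Dlx and Msx genes only 4 had a site over a TSS, the widest at Dlx4 (19767 bp) and the narrowest at Dlx6 (3173 bp), with a median share of 18.9%. Within 1 kb of a TSS 6 of the 9 had a site, and Dlx1 and Dlx2 were among those without. These differences between families were not tested.

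Genes that act in the same tissues as the Nkx factors were marked in part. In ventral neural tube patterning 10 of 14 genes had a site over a TSS, from 2702 bp at Gli1 to 56504 bp at Pax7. Of 15 heart genes, which are regulators apart from the hormone genes Nppa and Nppb and the myosin gene Myh6, 8 had one, the widest at Hand2 (37677 bp) and the narrowest at Tbx2 (7407 bp), while the extended bodies of Gata6 and Mef2c held no site. Of 13 pancreas islet genes 10 had one, between Ins2 (6187 bp) and Mnx1 (27011 bp), and the hormone genes Ins1 and Gcg had none. Of 11 thyroid and lung genes 5 had one, with Foxe1 (14757 bp) as the widest and the surfactant gene Sftpc (1433 bp) as the narrowest. Their median covered share was 4.82%, although Nkx2-1, which regulates several of them, was covered to 80.1%. Of 6 myelin and oligodendrocyte genes 4 had one, from Mbp (2635 bp) to Sox10 (21303 bp). Of 7 genes of spleen and gut mesenchyme 5 had one, from Foxf2 (12881 bp) to Tlx1 (78083 bp). Median covered shares of the lists other than thyroid and lung were 58.8% for ventral neural tube and 36.3% for heart. They were 50.0% for pancreas islet, 15.8% for myelin and oligodendrocyte and 67.6% for spleen and gut mesenchyme.

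The labelled cell type was checked by sites near marker genes, which are no measure of expression. Of 15 fibroblast genes only Pdgfra was marked no more than 1 kb from a TSS, by a site of 810 bp, and the median covered share was 0%. The same distance held for 26.9% of all protein-coding genes. The counts were 2 of 4 for epithelial, 1 of 3 for blood, 1 of 3 for endothelial, 3 of 4 for neural and 1 of 3 for muscle markers, lists too short to be read against that share.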

How the data were processed

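H3K27me3 ChIP-seq and input libraries of iMEF cells were sequenced. According to the study's methods, reads were trimmed by the authors (Trim Galore) and mapped with BWA against mm10 (GRCm38.p6), and samtools filtering was followed by broad peak calling in MACS. Versions, cutoffs and the rule for joining peaks across samples were not given in the sources used here. The deposited list holds chromosome, start and end in base pairs for sites pooled over all samples, and 0 columns of single samples were left unused. A broad peak caller sets the smallest width and the distance across which stretches are joined, so counts and widths of sites depend on it.

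Starts were read as counted from 0, because the smallest width was then 200 bp, and are printed counted from 1. Sites were intersected with GENCODE M21 genes of GRCm38 in Python 3 (numpy, pandas), after the code was tested on simulated data. Chromosome Y was not analysed here, and 84 sites on scaffolds were kept out of gene counts. The covered share is the percent of bases inside sites. CpG islands were scored in repeat-masked RefSeq sequence (17 per CpG, -1 per other base, at least 200 bp, GC content at least 50%, observed/expected CpG at least 0.6). No test between groups was possible. Settings of site width, merging, flank and TSS definition were varied. Named were the 10 genes and protein-coding genes touched by a site of at least 10 kb that also touches an extended gene. From each list at most 4 examples were named, except in the heart list. Genes that stand in more than 1 list were named besides. Neighbouring genes named outside these rules (Xrn2, Inpp5a, Pax1, Pax9, Cds1 and Ank1) were chosen after their values were seen. A gene among those the rule and a list would name is not reported here. Members and lists were chosen with earlier results of these data known.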

Additional observations from a re-analysis of the deposited data

How the results depend on the processing

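The counts of genes with a site over a TSS, within 1 kb of a TSS or in the window stayed at 10 of 10 under each alternative run except 1: asking for a site's midpoint, not its edge, within 1 kb left 3 genes, beside 18.5% of all protein-coding genes. The median covered share of 57.5% became 56.6% with sites of at least 500 bp, 52.1% with sites of at least 1000 bp, 62.7% and 72.8% when sites less than 1000 and 3000 bp apart were merged, 93.8% with 5 kb and 38.2% with 50 kb on both sides, 100% for the gene body only and 65.1% for 20 kb around the 5′ end. Over these settings the median over all genes was between 0% and 3.92%. With 1 gene per linked pair, added after seeing the data, it was 64.1% without Nkx2-4 and Nkx2-9 and 52.9% without Nkx2-1 and Nkx2-2. The median width of the widest site, 14152 bp, rose to 29338 and 34576 bp on merging at 1000 and 3000 bp and to 17998 bp with 50 kb on both sides. Merging sites less than 10000 or 20000 bp apart, added after seeing the data, joined 1 linked pair, Nkx2-1 with Nkx2-9, where 0 were joined in the list itself. Reading starts as counted from 1 moved the median widest site to 14154 bp. Widths and counts of sites thus depend on how neighbouring sites were joined, which the sources used here do not give. No paired analysis was possible because the pooled list holds no value per replicate. The list gives no reads behind a site, so a stretch between sites cannot be called free of H3K27me3.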

Other observations

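The protein-coding genes next to the Nkx2 and Nkx6 genes were counted in the same way. Of 15 such neighbours that were counted here and are not themselves Nkx2 or Nkx6 genes, leaving out Inpp5a, which overlaps Nkx6-2, 4 (26.7%) had a site over a TSS, beside 21.4% of all protein-coding genes. The median covered share of the 15 was 13.4%, beside 1.88% over all protein-coding genes, and their extended bodies can share sites with the Nkx genes. The 4 were Cfap46, Pax1, Cds1 and Ank1. At Cfap46, beside Nkx6-2, the widest such site had 14471 bp and is not the site of 10493 bp described above. Pax1 beside Nkx2-2 (site of 15449 bp), Cds1 beside Nkx6-1 (14341 bp) and Ank1 beside Nkx6-3 (33152 bp) were named after their values were seen. Pax9, chosen in the same way, is like Pax1 a paired-box gene of the vertebral column and lies 78482 bp from Nkx2-9. It had no site at its TSSs and a covered share of 3.60%. No difference between these genes was tested.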
